A study of Homo sapiens with 15 samples.

Results

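The 10 genes described here encode the mitochondrial contact site and cristae organizing system (MICOS), the outer membrane machinery that it binds, and the inner membrane GTPase OPA1. They were named by symbol (IMMT, CHCHD3, CHCHD6, APOO, APOOL, C19orf70, SAMM50, MTX1, MTX2 and OPA1) and matched to the Ensembl identifiers of the deposited tables through GENCODE v29. All 10 were found among the 58735 genes of the tables, and all 10 were among the 16175 genes expressed highly enough to be tested. The choice of genes used no measured value of these libraries as a threshold, but it was made with earlier results of these data known.

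RNA was sequenced in 15 libraries from HEK293T, a human embryonic kidney cell line that the study used as a supporting cell for leukemia cells. The clones, 4 groups, had a lentiviral Cas9 construct and a guide to the gene in their name, being C9orf89-CKO, then MAGI2-CKO, then MLPH-CKO and last RHBDD2-CKO. Series of 4 values below follow this order. The Non-target group carried the same construct with a guide that has no target, and its genotype is labelled WT. All 5 groups went through antibiotic selection and limiting dilution, so each is 1 clone. A group comprised 3 libraries, each from its own culture well. The p-values below therefore measure the spread between wells, and an edit and the clone that carries it cannot be told apart. C9orf89, named CARD19 in GENCODE v29, encodes a protein placed at mitochondria. C19orf70 was a further candidate of the screen behind the study, and a knockout clone of it was not analysed here. The same 3 Non-target libraries serve all 4 comparisons.

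Cristae are the folds of the inner mitochondrial membrane that hold the respiratory chain, and MICOS sits at the narrow junctions where they open. IMMT (MIC60), CHCHD3 (MIC19) and CHCHD6 (MIC25) form one part of it. APOO (MIC26), APOOL (MIC27) and C19orf70 (MIC13, also called QIL1) belong to the part built around MIC10, which C19orf70 links to the MIC60 part. SAMM50, MTX1 and MTX2 form the sorting and assembly machinery, which inserts barrel proteins into the outer membrane and is bound by the MIC60 part. OPA1 fuses inner membranes and narrows the crista junctions.

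Among the guides of the study's oligo list, those to C19orf70 and C9orf89 are shown because they tie these genes to the screen and to a clone with a mitochondrial target. They are printed 5′ to 3′ in lower case. The capitals mark the PAM, the bases beside the target that Cas9 requires, as read from the GENCODE v29 transcripts.
C19orf70: ggctgggggcgccgtctaccTGG
C9orf89: tcagacctattgtgaccgccTGG
The C19orf70 guide matches the minus strand of GRCh38 at chr19:5679723-5679742 in exon 2 of C19orf70, and lies within coding sequence in 4 of the 6 transcripts that hold it. The C9orf89 guide matches the plus strand at chr9:93107675-93107694 in exon 2 of CARD19, and lies within coding sequence in 2 of the 7 transcripts that hold it. CARD19 RNA measured 6.56 ± 1.04 FPKM in Non-target, against 4.32 ± 0.0421 FPKM in C9orf89-CKO (SD, n = 3). It was also at 4.79 ± 0.339 FPKM in RHBDD2-CKO, where as in C9orf89-CKO every library lay below the lowest of Non-target, and at 5.82 ± 0.419 and 6.68 ± 0.423 FPKM in MAGI2-CKO and MLPH-CKO, which overlapped Non-target. FPKM counts sequenced fragments relative to the exon length of a gene and to the size of the library, so levels can be set side by side between genes.

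A library held 15517856 to 19489918 fragments on genes, with a median of 17666063. Before the groups are compared, the libraries numbered 1 need a separate word, because in every group they stood apart from the other 2. Over genes with 10 fragments or more in 2 libraries of a group, the difference between the libraries gave a chi-square of 14.6 to 24.9 a gene where replicate 1 was one of them and of 2.40 to 6.54 between replicates 2 and 3. Several of the 10 genes moved with it. CHCHD3 was higher in replicate 1 than in replicates 2 and 3 in 5 of 5 groups, by a median of 0.30 on the log2 scale, and so was APOOL, by 0.14. Of all tested genes, 8.69% had this pattern. IMMT was lower in replicate 1 in 5 of 5 groups, by a median of −0.17, as were 10.6% of all tested genes. What set replicate 1 apart was not tested. The results are therefore also given from replicates 2 and 3 alone, a comparison added after the data were seen.

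**Figure D1:**
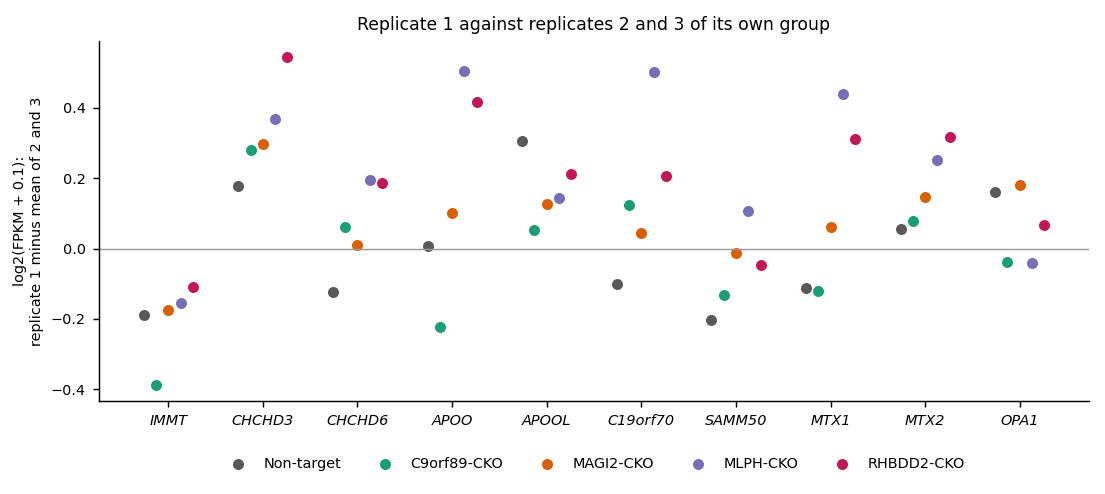
The difference in log2(FPKM + 0.1) between replicate 1 and the mean of replicates 2 and 3 is plotted for each of the 10 genes, with 1 point for each of the 5 groups. All 5 points of CHCHD3 and APOOL lie above 0, all 5 points of IMMT lie below 0, and C19orf70 reaches 0.50 in MLPH-CKO.

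The 7 HEK293T markers (PAX2, LHX1, VIM, NEFM, INA, KRT8 and KRT18) summed to 67.3 to 160.5 FPKM, with 0 to 1 of the 7 listed at 0 in a library and VIM the most abundant. Not all of the 7 were at a like level in every clone. NEFM, a neurofilament subunit, was at 0.0705, 0 and 0.0117 FPKM in MAGI2-CKO, on 6, 0 and 1 fragments, and at 1.89, 0.957 and 1.19 FPKM in RHBDD2-CKO, against 38.4, 21.4 and 21.8 in Non-target. In the other clones NEFM lay at 14.2 to 28.99 FPKM in C9orf89-CKO and 17.7 to 31.8 FPKM in MLPH-CKO, both overlapping Non-target. VIM, the filament protein vimentin, lay at 40.1 to 48.6 FPKM in Non-target and 59.3 to 74.7, 61.999 to 73.4, 71.2 to 87.9 and 42.8 to 50.6 FPKM in the 4 clones, of which the first 3 lay above every Non-target library. LHX1, a transcription factor of the developing kidney, lay at 0.922 to 1.098 FPKM in Non-target, at 1.29 to 1.501 and 1.82 to 2.20 FPKM in MAGI2-CKO and MLPH-CKO above it, at 0.395 to 0.484 FPKM in RHBDD2-CKO below it, and at 1.08 to 1.46 FPKM in C9orf89-CKO, which overlapped it. INA, another neuronal filament protein, lay at 13.4 to 15.3 FPKM in Non-target and 11.4 to 12.9, 8.92 to 9.48, 15.4 to 18.7 and 4.12 to 4.97 FPKM in the clones, below it in all but MLPH-CKO. The keratin KRT8 lay at 4.65 to 5.39 FPKM in Non-target and 2.51 to 2.69, 3.39 to 4.28, 14.7 to 16.3 and 4.08 to 5.03 FPKM in the clones, lower in C9orf89-CKO and MAGI2-CKO and higher in MLPH-CKO. PAX2, a further kidney transcription factor, and KRT18, the partner of KRT8, lay above every Non-target library in MLPH-CKO and overlapped Non-target in the other 3 clones. The 6 myeloid markers (PTPRC, SPI1, CD33, ITGAM, LYZ and CD14) summed to 0.147 to 0.629 FPKM, with 1 to 4 of the 6 listed at 0. The 7 mesenchymal markers (COL1A1, COL1A2, COL3A1, DCN, LUM, PDGFRB and THY1) summed to 3.09 to 5.86 FPKM, with 1 to 4 of the 7 listed at 0. COL3A1, a fibrillar collagen, reached 1.01 to 1.47 FPKM in Non-target and at most 0.369 FPKM in a clone library. LUM, a proteoglycan of the matrix, reached 0.393 to 0.890 FPKM in Non-target and at most 0.206 FPKM in the first 3 clones, while RHBDD2-CKO, at up to 0.409 FPKM, overlapped Non-target. COL1A1, another fibrillar collagen, lay at 2.24 to 2.66 FPKM in Non-target and 2.60 to 5.42 FPKM in the clones. The part of these differences between clones in the results below was not tested.

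Over the 15 libraries IMMT was the most abundant of the 10 genes, at 41.1 ± 4.28 FPKM (SD). C19orf70 followed at 29.6 ± 4.13, CHCHD3 at 28.98 ± 4.16 and MTX2 at 28.1 ± 2.75 FPKM. The other 6 genes lay lower, with SAMM50 at 13.2 ± 1.94, APOO at 11.4 ± 1.62, OPA1 at 10.1 ± 0.835, CHCHD6 at 9.88 ± 2.15, MTX1 at 9.46 ± 1.09 and APOOL at 6.14 ± 1.01 FPKM. No value of the 10 genes rests on fewer than 279 fragments. Groups were compared with limma on log2(FPKM + 0.1), with no term for the replicate number, and p-values were adjusted over all 16175 tested genes of a comparison (Benjamini-Hochberg, threshold 0.05). In bulk RNA, a lower level in every cell and fewer cells that express the gene cannot be told apart.

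**Figure D2:**
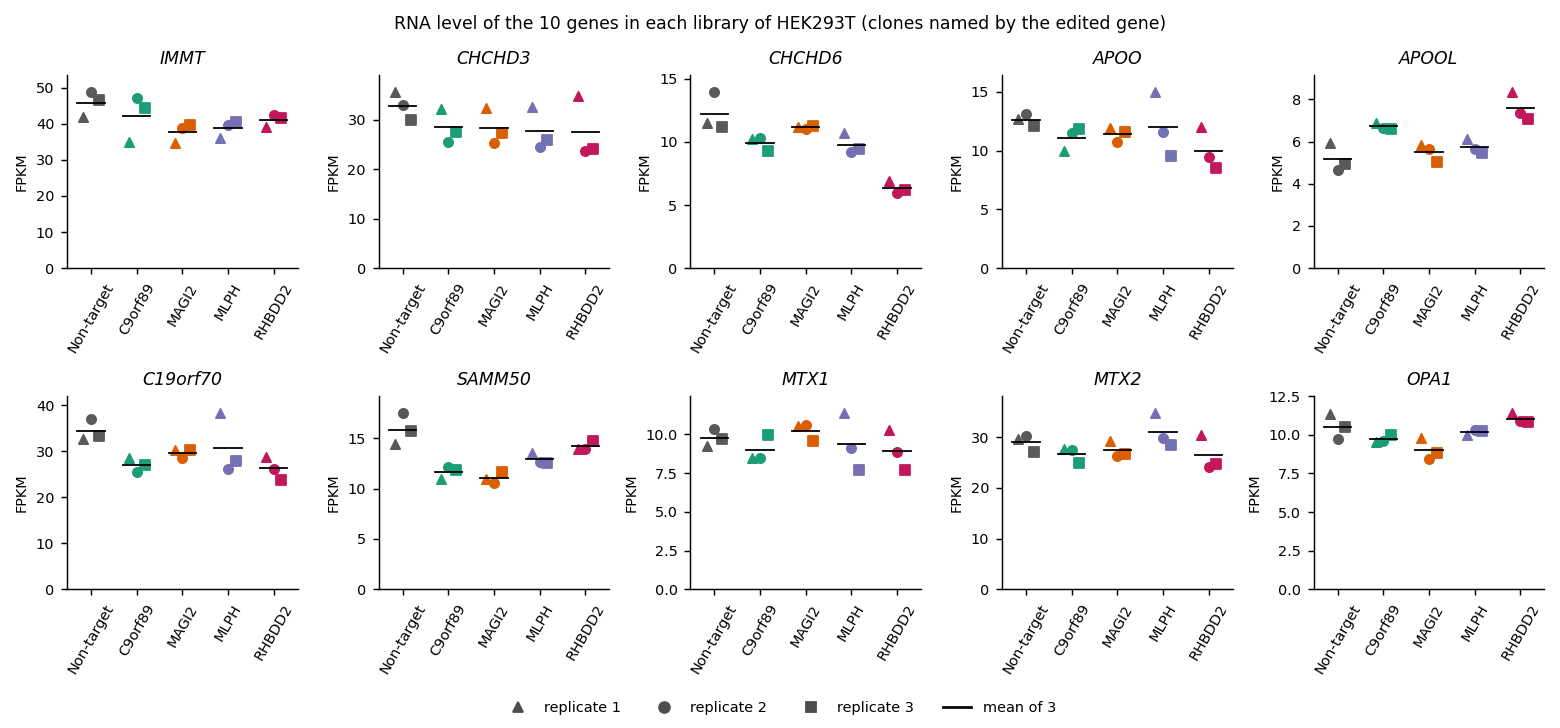
The level of each gene in FPKM (vertical axes, each starting at 0) is plotted for every library of the 5 groups, with the replicate number given by the symbol and the mean of 3 libraries by the line. CHCHD6 is lowest in the 3 libraries of RHBDD2-CKO, at most 6.93 FPKM, and SAMM50 has its lowest mean in MAGI2-CKO, at 11.1 FPKM.

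Between 2 and 3 of the 10 genes changed against Non-target in each clone. CHCHD6 and SAMM50 fell and APOOL rose in C9orf89-CKO. SAMM50 and OPA1 fell in MAGI2-CKO, CHCHD6 and SAMM50 fell in MLPH-CKO, and in RHBDD2-CKO CHCHD6 and C19orf70 fell and APOOL rose. These counts of 3, 2, 2 and 3 stand against 26%, 36.1%, 30.1% and 34.1% of all tested genes past the threshold in the 4 clones. Lower genes made up 13.1%, 19.1%, 15.5% and 16.7% of all tested genes and higher genes 12.9%, 17%, 14.5% and 17.4%. The members' shares of 30% and 20% were thus near or below the background.
Most of the 10 genes lay below Non-target by a small amount. The fold change was negative for 9, 8, 8 and 8 of the 10 genes, with medians of −0.16, −0.18, −0.13 and −0.15 on the log2 scale, while the median of all tested genes lay within 0.01 of 0. Rescaling to TPM moved the median of all tested genes to 0.15 in RHBDD2-CKO and left 5 of the 10 genes below 0 there, IMMT, MTX1 and MTX2 having changed sign. The medians of the 10 genes were then −0.098, −0.19, −0.14 and −0.0010. Replicates 2 and 3 alone gave medians of −0.12, −0.20, −0.26 and −0.25.
From replicates 2 and 3, 5, 5, 5 and 8 of the 10 genes passed the threshold, of which 4, 5, 5 and 7 were lower than in Non-target. In the same fit 32.4%, 40.4%, 36.9% and 42% of all tested genes passed, and 17.2%, 21.7%, 20.3% and 22.2% passed with lower values. With all libraries, the clone and Non-target did not overlap for 5, 4, 3 and 4 of the 10 genes, against 39.7%, 46.8%, 41.1% and 44.2% of all tested genes.

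**Figure D3:**
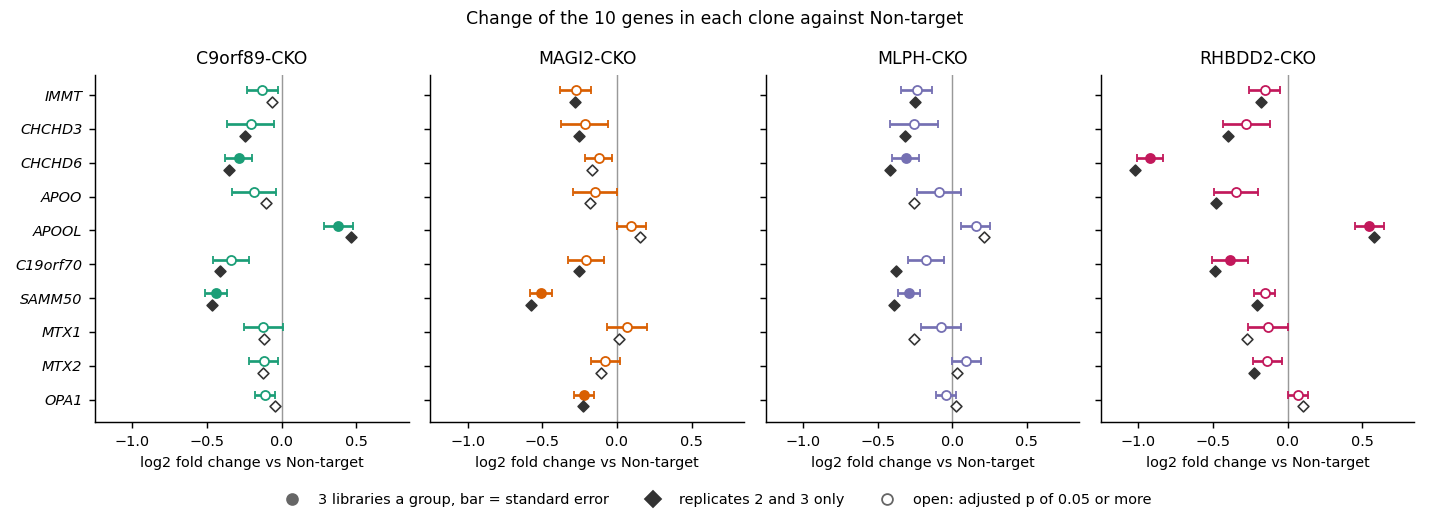
The log2 fold change of each gene against Non-target is plotted for the 4 clones, with circles and standard error bars for all 3 libraries a group and diamonds for replicates 2 and 3 alone. Filled circles have an adjusted p under 0.05, and CHCHD6 in RHBDD2-CKO lies farthest from 0, at −0.92.

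CHCHD6 (ENSG00000159685, chromosome 3 from 126704220 to 126960406, plus strand of GRCh38), the MIC25 subunit, had the largest single change of the 10 genes, in RHBDD2-CKO. The Non-target libraries measured 11.5, 13.9 and 11.2 FPKM in replicates 1, 2 and 3, and those of RHBDD2-CKO measured 6.93, 5.96 and 6.21. C9orf89-CKO gave 10.2, 10.3 and 9.27 FPKM, MAGI2-CKO 11.2, 10.99 and 11.2, and MLPH-CKO 10.7, 9.16 and 9.46. All 3 RHBDD2-CKO libraries lay below the other 12, and those of MAGI2-CKO overlapped Non-target. In RHBDD2-CKO the mean fell by 47.8%, which is −0.92 ± 0.090 on the log2 scale (SE; limma, adjusted p = 8.48e-06), and −1.02 from replicates 2 and 3 (adjusted p = 0.000248).
RHBDD2-CKO also lay below each of the other clones, by −0.63 against C9orf89-CKO, −0.80 against MAGI2-CKO and −0.61 against MLPH-CKO (limma, adjusted p = 0.000176, 1.48e-05 and 0.000182). Of all tested genes 29.3%, 41.6% and 37% passed in these comparisons. CHCHD6 was the only one of the 10 genes that differed in 1 direction between a group and each of the other 4 with all libraries in the unblocked fit. For RHBDD2-CKO as the lower group, 5.88% of all tested genes did so.
In C9orf89-CKO CHCHD6 fell by 0.29 and in MLPH-CKO by 0.31 (SE 0.090; limma, adjusted p = 0.0317 and 0.0190). These lesser changes rest in part on Non-target replicate 2, the library at 13.9 FPKM, without which they were −0.19 and −0.21 (limma, adjusted p = 0.133 and 0.0780). The call was also lost in C9orf89-CKO without any 1 of its own libraries (limma, adjusted p = 0.0521, 0.0506 and 0.112) or after rescaling to TPM (−0.23, adjusted p = 0.0598), and in MLPH-CKO without its replicate 2 or 3 (adjusted p = 0.0767 and 0.0626). In MAGI2-CKO the log2 fold change was −0.12 (limma, adjusted p = 0.331), and it ranged from −0.18 to −0.022 with each library left out in turn. The ratio of CHCHD6 to CHCHD3, a related subunit of the same part, was 0.372 ± 0.0503 in Non-target and 0.236 ± 0.0325 in RHBDD2-CKO (SD, n = 3).

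The chromosomal neighbourhood of CHCHD6 moved with it in RHBDD2-CKO. The 50 tested genes nearest to CHCHD6 span 6.04 Mb, and their median log2 fold change was −0.47 in that clone, where 33 of the 50 fell, against 16.7% of all tested genes. In the other 3 clones the medians were −0.049, −0.0014 and −0.050, and 7, 9 and 7 of the 50 fell. In RHBDD2-CKO CHCHD6 differed from the median of its neighbours by −0.46, and 2 of the 50 had a lower value. The part of the neighbourhood in the change of CHCHD6 was not tested.

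IMMT (ENSG00000132305, chromosome 2 from 86143932 to 86195770, minus strand), the core of the MIC60 part, measured 41.8, 48.8 and 46.6 FPKM in Non-target. It measured 34.8, 38.8 and 39.6 FPKM in MAGI2-CKO and 35.999, 39.7 and 40.4 FPKM in MLPH-CKO, in each case below every Non-target library. C9orf89-CKO gave 34.9, 47.1 and 44.2 FPKM and RHBDD2-CKO 39.04, 42.5 and 41.7, both with the lowest value in replicate 1. The log2 fold changes of −0.13, −0.28, −0.24 and −0.15 did not pass (limma, adjusted p = 0.397, 0.0528, 0.102 and 0.281). From replicates 2 and 3 the log2 fold changes were −0.064, −0.28, −0.25 and −0.18 (limma, adjusted p = 0.305, 0.00177, 0.00367 and 0.0132), so that IMMT passed there in every clone but C9orf89-CKO. Leaving out each library in turn, the change in C9orf89-CKO ranged from −0.22 to −0.00044.
CHCHD3 (ENSG00000106554, chromosome 7 from 132784868 to 133082088, minus strand), which holds IMMT to SAMM50, was highest in replicate 1 of every group. It measured 35.6, 32.99 and 30.02 FPKM in Non-target and 34.8, 23.7 and 24.04 FPKM in RHBDD2-CKO, where replicate 1 lay within the range of Non-target and the other 2 below it. C9orf89-CKO gave 32.3, 25.6 and 27.6 FPKM, MAGI2-CKO 32.4, 25.3 and 27.4 and MLPH-CKO 32.5, 24.5 and 25.9. With all libraries each clone overlapped Non-target, and the log2 fold changes of −0.21, −0.22, −0.26 and −0.28 did not pass in this fit without a term for the number (limma, adjusted p = 0.369, 0.318, 0.252 and 0.201). Among libraries of the same number, all 4 clones lay below Non-target in each of the 3, as they did for IMMT and SAMM50. The share of all tested genes with this order was not counted. No label states that the numbers mark a batch, and all clones were set against the same Non-target libraries. Replicates 2 and 3 alone gave −0.24, −0.26, −0.32 and −0.40, and all 4 passed (limma, adjusted p = 0.0271, 0.0175, 0.00791 and 0.00260). Rescaling all libraries to TPM gave −0.15, −0.23, −0.26 and −0.12, and none passed (limma, adjusted p = 0.436, 0.183, 0.144 and 0.483). CHCHD3 is uncertain, because AC008038.1, a processed pseudogene on the same strand, shares 172 exon bases with it and measured 272.3 FPKM.

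APOOL (ENSG00000155008, chromosome X from 85003826 to 85093316, plus strand), the cardiolipin-binding MIC27 subunit, was the only one of the 10 genes that rose, apart from OPA1 in RHBDD2-CKO once values were rescaled to TPM. It measured 5.94, 4.65 and 4.92 FPKM in Non-target, 6.88, 6.66 and 6.61 in C9orf89-CKO and 8.34, 7.34 and 7.05 in RHBDD2-CKO, and every library of these clones lay above every Non-target library. MAGI2-CKO gave 5.84, 5.66 and 5.02 FPKM and MLPH-CKO 6.14, 5.65 and 5.46, both overlapping Non-target. In RHBDD2-CKO the mean was 46.7% higher, 0.55 ± 0.10 on the log2 scale (SE; limma, adjusted p = 0.000833). In C9orf89-CKO the log2 fold change was 0.38 ± 0.10 (SE; limma, adjusted p = 0.0108). The changes of 0.10 in MAGI2-CKO and 0.16 in MLPH-CKO did not pass (limma, adjusted p = 0.483 and 0.247).
Between clones, RHBDD2-CKO exceeded MAGI2-CKO by 0.45 and MLPH-CKO by 0.39 (limma, adjusted p = 0.00207 and 0.00621). MAGI2-CKO lay −0.28 from C9orf89-CKO (limma, adjusted p = 0.0496), a comparison in which 22.5% of all tested genes passed and in which the adjusted p of APOOL reached 0.182 over the alternatives. The 50 tested genes nearest to APOOL had medians of 0.0092 on the log2 scale in C9orf89-CKO and −0.10 in RHBDD2-CKO, and APOOL exceeded them by 0.37 and 0.65.

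APOO (ENSG00000184831, chromosome X from 23833353 to 23907934, minus strand), the related MIC26 subunit, did not rise in any clone. It measured 12.7, 13.1 and 12.1 FPKM in Non-target and 12.004, 9.49 and 8.49 FPKM in RHBDD2-CKO, all 3 below Non-target. C9orf89-CKO gave 9.99, 11.5 and 11.8 FPKM, MAGI2-CKO 11.9, 10.7 and 11.5 and MLPH-CKO 14.97, 11.6 and 9.55, the last with its highest value in replicate 1. Every library of C9orf89-CKO and MAGI2-CKO also lay below Non-target, while MLPH-CKO overlapped it. The log2 fold changes of −0.19, −0.15, −0.090 and −0.35 did not pass (limma, adjusted p = 0.401, 0.486, 0.697 and 0.0903). In replicates 2 and 3 the change in RHBDD2-CKO was −0.48 (limma, adjusted p = 0.00665). The ratio of APOOL to APOO was 0.410 ± 0.0572 in Non-target and 0.609 ± 0.0700, 0.485 ± 0.0472, 0.490 ± 0.0806 and 0.766 ± 0.0681 in the 4 clones (SD, n = 3).

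C19orf70 (ENSG00000174917, chromosome 19 from 5678421 to 5680896, minus strand), the MIC13 subunit and the screen candidate among the 10 genes, had its highest mean in Non-target. It measured 32.7, 36.9 and 33.3 FPKM in Non-target and 28.8, 26.2 and 23.8 FPKM in RHBDD2-CKO. C9orf89-CKO gave 28.6, 25.5 and 27.1 FPKM, MAGI2-CKO 30.3, 28.5 and 30.2 and MLPH-CKO 38.2, 26.2 and 27.8. Every library of the clones other than MLPH-CKO lay below every Non-target library, and replicate 1 of MLPH-CKO lay above all of them. In RHBDD2-CKO C19orf70 fell by 23.4%, −0.39 ± 0.12 on the log2 scale (SE; limma, adjusted p = 0.0251, 0.00153 to 0.1004 over the alternatives). This change no longer passed without Non-target replicate 2 (limma, adjusted p = 0.0950), RHBDD2-CKO replicate 2 (0.0585) or RHBDD2-CKO replicate 3 (0.1004), nor after rescaling to TPM (0.0843).
The changes of −0.34, −0.21 and −0.18 in the other 3 clones did not pass (limma, adjusted p = 0.0531, 0.207 and 0.305). From replicates 2 and 3 the changes of C19orf70 were −0.42, −0.26, −0.38 and −0.49, and all 4 passed (limma, adjusted p = 0.00439, 0.0249, 0.00550 and 0.00153). With each library left out in turn, the change in MLPH-CKO ranged from −0.34 to −0.071. Leaving out MLPH-CKO replicate 1 alone moved the change in that clone to −0.34 (limma, adjusted p = 0.0109). The same step gave C9orf89-CKO an adjusted p of 0.00637 by limma, since the groups share 1 estimate of the spread. HSD11B1L, at 2.85 FPKM, shares 293 exon bases with C19orf70 on the opposite strand, and the library kit is not stated to keep the strand.

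Over the 15 libraries, the genes most like C19orf70 by Pearson's r of log2(FPKM + 0.1), among 12532 genes with a mean of at least 1 FPKM, were HDGF (0.937), RPL35 (0.924) and TPI1 (0.920). For IMMT they were RPN2 (0.941), RPA1 (0.930) and SLC39A14 (0.929). These libraries share clones and replicate numbers, and the coefficients are a description.

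SAMM50 (ENSG00000100347, chromosome 22 from 43955421 to 44010531, plus strand), the barrel subunit of the sorting and assembly machinery, fell in 3 clones. It measured 14.4, 17.5 and 15.7 FPKM in Non-target. C9orf89-CKO gave 10.9, 12.1 and 11.9 FPKM, MAGI2-CKO 11.01, 10.6 and 11.7 and MLPH-CKO 13.6, 12.7 and 12.6, and these 9 libraries all lay below the lowest Non-target library. RHBDD2-CKO, at 13.9, 13.97 and 14.8 FPKM, overlapped Non-target, though each library lay below the Non-target library of the same number. SAMM50 fell by 0.44, 0.51 and 0.29 on the log2 scale in the first 3 clones (SE 0.073; limma, adjusted p = 0.000709, 0.000137 and 0.00911). In a fit of only the 6 libraries of the 2 groups the call in MLPH-CKO was lost (limma, adjusted p = 0.0586). In RHBDD2-CKO the log2 fold change was −0.15 (limma, adjusted p = 0.123), and from replicates 2 and 3 it was −0.21 (adjusted p = 0.0443). Rescaling to TPM moved it to −0.0020 (limma, adjusted p = 0.993).
RHBDD2-CKO exceeded C9orf89-CKO by 0.29 and MAGI2-CKO by 0.36 (limma, adjusted p = 0.00955 and 0.00159). MLPH-CKO exceeded MAGI2-CKO by 0.22 (limma, adjusted p = 0.0468), where 21.2% of all tested genes passed, and from replicates 2 and 3 this difference had an adjusted p of 0.0926.

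The neighbourhood of SAMM50 moved in the same 3 clones. The 50 tested genes nearest to it span 3.70 Mb, and their median log2 fold changes were −0.40, −0.43, −0.48 and −0.029. Of these 50 genes 30, 25, 29 and 11 fell, beside 13.1%, 19.1%, 15.5% and 16.7% of all tested genes. SAMM50 itself differed from the median of its neighbours by −0.043, −0.078, 0.19 and −0.13, with 23, 20, 33 and 20 of the 50 below it. The part of the neighbourhood in the change of SAMM50 was not tested. One overlapping gene, PNPLA3, shares 148 exon bases with SAMM50 on the same strand and measured 5.34 FPKM.

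**Figure D4:**
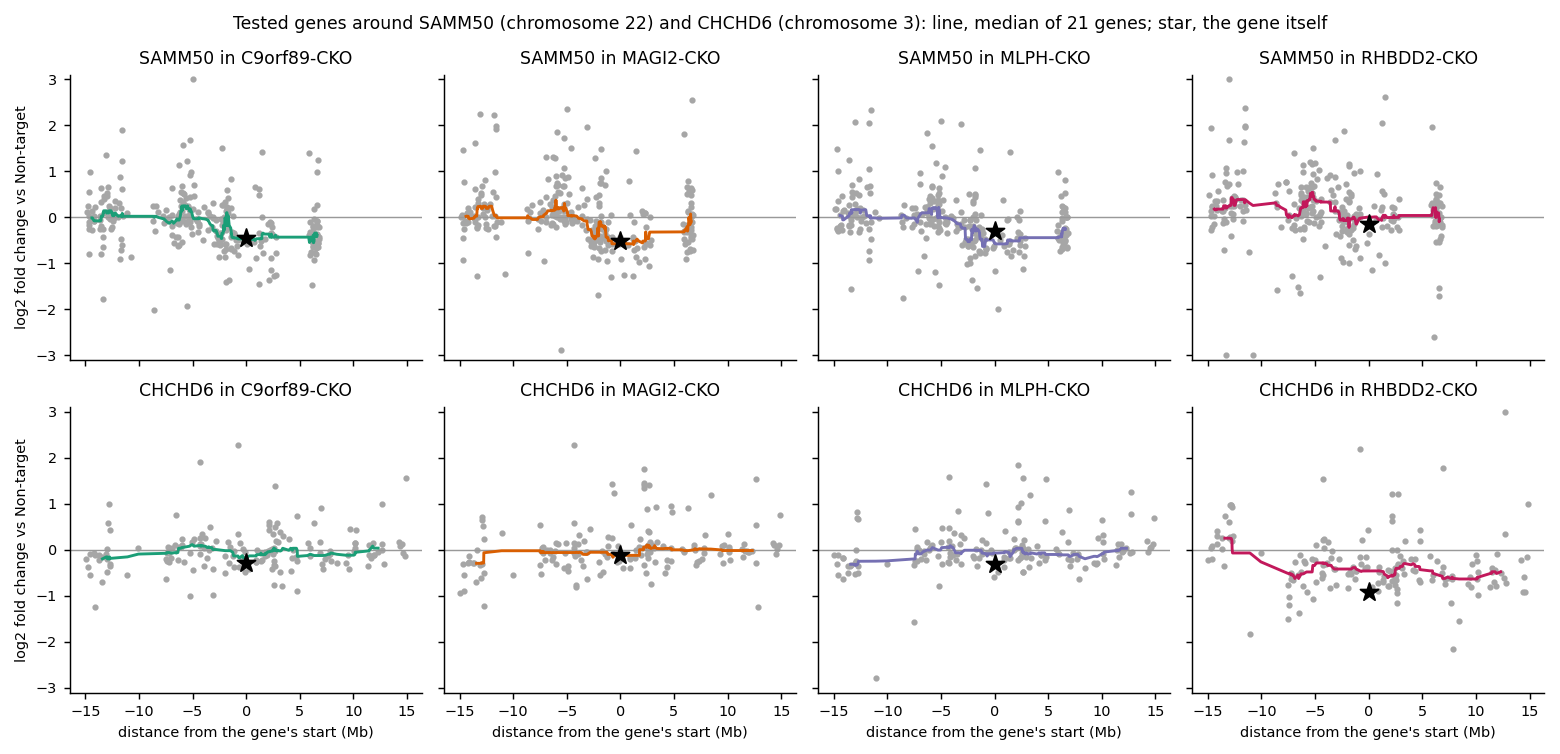
The log2 fold change against Non-target (values beyond 3 drawn at 3) is plotted for the tested genes within 15 Mb of SAMM50 and of CHCHD6 by distance from the start of the gene in Mb, with a running median of 21 genes as the line and the gene itself as a star. Among the 50 nearest genes the median is −0.40, −0.43 and −0.48 around SAMM50 in the first 3 clones and −0.47 around CHCHD6 in RHBDD2-CKO.

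The metaxins MTX1 and MTX2, which work with SAMM50 at the outer membrane, did not pass in any clone with all libraries. MTX2 (ENSG00000128654, chromosome 2 from 176269395 to 176338025, plus strand) measured 29.7, 30.2 and 27.02 FPKM in Non-target and 30.5, 24.2 and 24.8 FPKM in RHBDD2-CKO, where replicate 1 lay above Non-target and replicates 2 and 3 below it. C9orf89-CKO gave 27.6, 27.5 and 24.8 FPKM, MAGI2-CKO 29.3, 26.3 and 26.6 and MLPH-CKO 34.7, 29.8 and 28.5. The log2 fold changes of MTX2 were −0.12, −0.079, 0.094 and −0.14 (limma, adjusted p = 0.410, 0.580, 0.521 and 0.318), and from replicates 2 and 3 that in RHBDD2-CKO was −0.22 (adjusted p = 0.0309).
MTX1 (ENSG00000173171, chromosome 1 from 155208699 to 155213824, plus strand) measured 9.26, 10.3 and 9.68 FPKM in Non-target and 8.97 ± 0.867, 10.2 ± 0.555, 9.38 ± 1.86 and 8.94 ± 1.29 FPKM in the 4 clones (SD, n = 3). Its log2 fold changes were −0.12, 0.068, −0.074 and −0.13 (limma, adjusted p = 0.545, 0.735, 0.723 and 0.477), and none passed from replicates 2 and 3. MTX1 is uncertain, because its unprocessed pseudogene MTX1P1 measured 8.43 FPKM and the counting could have split fragments between the copies. The ratio of SAMM50 to MTX2 was 0.549 ± 0.0554 in Non-target and 0.438 ± 0.0406, 0.405 ± 0.0317, 0.419 ± 0.0256 and 0.543 ± 0.0767 in the 4 clones (SD, n = 3).

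OPA1 (ENSG00000198836, chromosome 3 from 193593144 to 193697823, plus strand) fell in MAGI2-CKO and passed in no other clone, apart from RHBDD2-CKO once values were rescaled to TPM. It measured 11.3, 9.72 and 10.5 FPKM in Non-target and 9.80, 8.45 and 8.81 FPKM in MAGI2-CKO, groups that overlap. C9orf89-CKO gave 9.54, 9.59 and 10.003 FPKM, MLPH-CKO 10.01, 10.3 and 10.3 and RHBDD2-CKO 11.4, 10.9 and 10.8. The log2 fold changes were −0.11, −0.22, −0.041 and 0.071 (SE 0.066; limma, adjusted p = 0.244, 0.0204, 0.690 and 0.443). Rescaling to TPM moved the change in RHBDD2-CKO to 0.22, which passed (limma, adjusted p = 0.0249). The call in MAGI2-CKO was lost without MAGI2-CKO replicate 2 (limma, adjusted p = 0.0938) or 3 (0.0642), or without Non-target replicate 1 (0.0818) or 3 (0.0547), and in a fit of only the 6 libraries of the 2 groups (0.103). It held under 21 of the 26 alternatives. RHBDD2-CKO exceeded MAGI2-CKO by 0.29 (limma, adjusted p = 0.00341). In RHBDD2-CKO the 50 tested genes nearest to OPA1 had a median of 0.21, opposite in sign to those of CHCHD6 on the same chromosome.

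Summed by role, IMMT, CHCHD3 and CHCHD6 reached 90.8 ± 4.27 FPKM in Non-target and 80.5 ± 2.84, 77.2 ± 1.87, 76.1 ± 2.91 and 74.95 ± 5.07 FPKM in the 4 clones (SD, n = 3). The highest clone library of this sum, at 82.9 FPKM, lay below the lowest Non-target library, at 87.8 FPKM. The sum joins genes that moved in opposite directions in replicate 1 of every group, IMMT lower and CHCHD3 higher. It also holds CHCHD3, whose level is uncertain as described above. Rescaled to TPM, the sum in C9orf89-CKO replicate 2 was 317.6, above Non-target replicate 1 at 311.5, while the other 11 clone libraries, at most 307.9, lay below it. The sum of APOO, APOOL and C19orf70 was 52.1 ± 2.31 FPKM in Non-target and 44.9 ± 1.08, 46.6 ± 1.58, 48.5 ± 9.38 and 43.8 ± 4.97 FPKM in the clones. That of SAMM50, MTX1 and MTX2 was 54.6 ± 3.01 FPKM in Non-target and 47.3 ± 0.735, 48.8 ± 1.85, 53.3 ± 5.68 and 49.7 ± 4.38 FPKM. In MLPH-CKO, where the last 2 sums spread widely, APOO, C19orf70, MTX1 and MTX2 were highest in replicate 1. Over the 15 libraries r was 0.80 between APOO and MTX1, 0.80 between APOO and C19orf70, and −0.78 between CHCHD6 and APOOL. These coefficients describe 5 clones with 3 libraries each.

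Genes that work with MICOS were described through 7 lists of 86 genes, of which 84 were tested and TOMM6 and PLSCR3 were not. Past the threshold, 12, 10, 9 and 11 genes rose and 16, 24, 19 and 22 fell in the 4 clones. Together these are 33.3%, 40.5%, 33.3% and 39.3% of the 84 genes, beside 26%, 36.1%, 30.1% and 34.1% of all tested genes. The medians were −0.057, −0.090, −0.056 and −0.12 on the log2 scale. From replicates 2 and 3, 43, 47, 40 and 51 of the 84 genes passed, beside 32.4%, 40.4%, 36.9% and 42% of all tested genes.

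**Figure D5:**
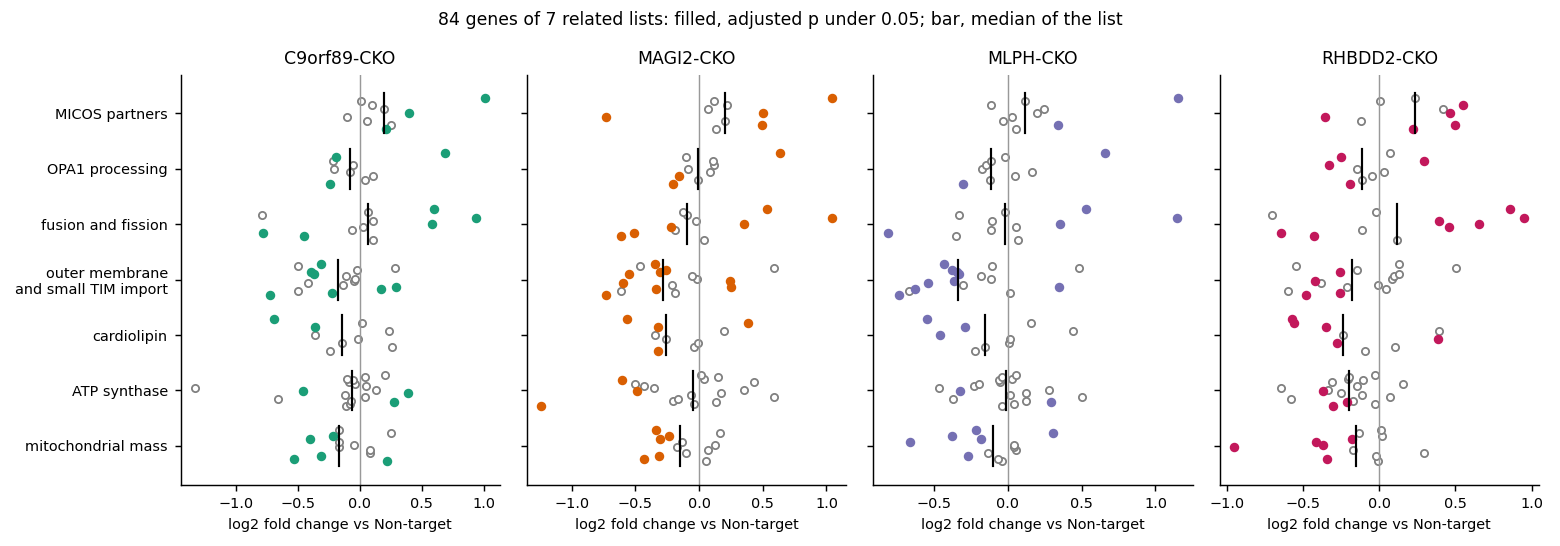
The log2 fold change against Non-target is plotted for the 84 tested genes of the 7 lists in the 4 clones, with filled points for an adjusted p under 0.05 and a bar at the median of each list. The median of the outer membrane and small TIM import list lies at −0.18, −0.28, −0.34 and −0.18, and that of the MICOS partners at 0.20, 0.20, 0.12 and 0.24.

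Among 9 partners of MICOS, 3, 3, 2 and 4 rose and 0, 1, 0 and 1 fell in the 4 clones. Of this list 33.3%, 44.4%, 22.2% and 55.6% passed, beside 26%, 36.1%, 30.1% and 34.1% of all tested genes, so that MLPH-CKO lay under the background. TMEM11, an outer membrane protein that binds MICOS, measured 10.5 ± 1.05 FPKM in Non-target and 21.4 ± 3.12, 21.7 ± 1.78, 23.4 ± 0.847 and 12.4 ± 0.976 FPKM in the clones (SD, n = 3). It rose by 1.01, 1.04 and 1.15 on the log2 scale in the first 3 (limma, adjusted p = 2.58e-05, 1.14e-05 and 6.98e-06), and its change of 0.24 in RHBDD2-CKO did not pass (adjusted p = 0.112). From replicates 2 and 3 the change in RHBDD2-CKO was 0.22 and passed (limma, adjusted p = 0.0355). MTX3, another metaxin, rose in RHBDD2-CKO from 5.31 to 7.79 FPKM (0.55 on the log2 scale; limma, adjusted p = 0.000733). MICOS10, which encodes MIC10 itself, was named after its values were seen. It measured 0.783 FPKM in Non-target, under every one of the 10 genes, and passed in no clone in the fit of all libraries. In RHBDD2-CKO it averaged 1.07 FPKM, with every library above Non-target, which the other clones overlapped. Its log2 fold change there was 0.42 (limma, adjusted p = 0.173, 0.0484 to 0.386 over the alternatives). Whether other genes share exon bases with MICOS10 was not examined, so its level is uncertain.

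Among 9 genes of OPA1 processing, 1, 1, 1 and 1 rose and 2, 2, 1 and 3 fell. Here 33.3%, 33.3%, 22.2% and 44.4% of the list passed and 26%, 36.1%, 30.1% and 34.1% of all tested genes, with the list under the background in MAGI2-CKO and MLPH-CKO. YME1L1, the inner membrane protease that cuts OPA1, measured 21.7 FPKM in Non-target and 34.9, 33.7, 34.2 and 22.7 FPKM in the clones. Its log2 fold changes were 0.68, 0.64, 0.66 and 0.068 (limma, adjusted p = 7.95e-06, 8.43e-06, 9.30e-06 and 0.451). AFG3L2, a subunit of the matrix-side protease, fell in all 4 clones, by 0.24, 0.20, 0.30 and 0.19 on the log2 scale, with an adjusted p of up to 0.0534 in MAGI2-CKO and 0.596 in RHBDD2-CKO over the alternatives. PHB2, a prohibitin scaffold of the inner membrane, fell by 0.33 in RHBDD2-CKO (limma, adjusted p = 0.0248, up to 0.483 over the alternatives).

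Of 11 fusion and fission genes, 3, 3, 3 and 5 rose and 2, 3, 1 and 2 fell. The list's shares past the threshold were 45.5%, 54.5%, 36.4% and 63.6%, against 26%, 36.1%, 30.1% and 34.1% over all tested genes. MIEF2, an outer membrane receptor for the fission GTPase, rose in all 4 clones, from 4.74 FPKM in Non-target to 9.07, 9.77, 10.6 and 9.19 FPKM, by 0.94, 1.04, 1.15 and 0.95 on the log2 scale. MFN2, the outer membrane fusion GTPase, rose by 0.58, 0.35, 0.35 and 0.66, and PLD6, a mitochondrial surface phospholipase, by 0.60, 0.53, 0.53 and 0.86. GDAP1, an outer membrane protein linked to fission, fell by 0.78, 0.51, 0.81 and 0.64. The highest adjusted p among these 16 tests was 0.00125 by limma. Of all tested genes, 3.39% rose and 3.26% fell in all 4 clones.

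Of 16 tested genes of outer membrane and small TIM import, 2, 2, 1 and 0 rose and 5, 7, 8 and 4 fell. Together 43.8%, 56.2%, 56.2% and 25% of these genes passed, where 26%, 36.1%, 30.1% and 34.1% of all tested genes did. CHCHD4, the receptor that oxidises small proteins on entry into the intermembrane space, fell from 22.7 FPKM to 13.7, 13.6, 13.7 and 16.3 FPKM, by 0.73, 0.73, 0.73 and 0.48 on the log2 scale. TOMM40, the channel of the outer membrane translocase, fell by 0.40, 0.30, 0.34 and 0.26, the last with an adjusted p of up to 0.284 over the alternatives. Of 9 tested cardiolipin genes, 0, 1, 0 and 1 rose and 2, 3, 3 and 4 fell, which is 22.2%, 44.4%, 33.3% and 55.6% of the list against the same background. TRIAP1, which works in carrying phosphatidic acid between the membranes, fell by 0.69, 0.57, 0.55 and 0.58, and TAMM41, an enzyme of cardiolipin synthesis, by 0.36, 0.32, 0.29 and 0.35. The adjusted p of TAMM41 reached 0.0843, 0.0585, 0.0963 and 0.206 over the alternatives.

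Of 18 ATP synthase genes, 2, 0, 1 and 0 rose and 1, 3, 1 and 3 fell. The 16.7%, 16.7%, 11.1% and 16.7% of this list that passed lay below the 26%, 36.1%, 30.1% and 34.1% of all tested genes in each clone. ATP5MC3, which encodes the c subunit of the rotor, fell by 0.46, 0.49, 0.32 and 0.37, with an adjusted p of up to 0.115 in MLPH-CKO and 0.0535 in RHBDD2-CKO over the alternatives. ATP5F1A, the alpha subunit of the catalytic part, fell in MAGI2-CKO from 52.9 to 22.4 FPKM, −1.24 on the log2 scale (limma, adjusted p = 5.84e-07). Of 12 genes taken to follow mitochondrial mass, 1, 0, 1 and 0 rose and 4, 5, 5 and 5 fell, 41.7%, 41.7%, 50% and 41.7% of the list beside that background. The share of fragments from the mitochondrial genome itself was 2.63, 1.57 and 1.61% in the Non-target libraries, 3.101, 1.88 and 1.87% in C9orf89-CKO, 3.28, 2.44 and 2.64% in MAGI2-CKO, 2.54, 3.91 and 2.89% in MLPH-CKO and 1.65, 1.73 and 1.71% in RHBDD2-CKO. No test was run on this share. It was higher than in the Non-target library of the same number in replicates 2 and 3 of all 4 clones and in replicate 1 of C9orf89-CKO and MAGI2-CKO, and lower in replicate 1 of MLPH-CKO and RHBDD2-CKO. SLC25A5, an adenine nucleotide translocase, fell in RHBDD2-CKO from 643.2 to 332.0 FPKM, −0.95 on the log2 scale (limma, adjusted p = 2.40e-06). TFAM, which packs mitochondrial DNA, fell by 0.66 in MLPH-CKO, and CYC1, a subunit of the respiratory chain, fell by 0.54 in C9orf89-CKO and 0.43 in MAGI2-CKO. TIMM44, of the inner membrane import motor, fell by 0.41, 0.31, 0.18 and 0.18, the last 2 with an adjusted p of up to 0.123 and 0.764 over the alternatives.

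The chromosomal neighbours of several of these genes moved in the same direction, as those of SAMM50 and CHCHD6 did. TMEM11, MIEF2 and PLD6 all lie on chromosome 17. The 50 tested genes nearest to TMEM11 had medians of 1.16, 1.202, 1.17 and 0.83 on the log2 scale, and 40, 41, 39 and 37 of the 50 rose, while TMEM11 itself was at 0.24 in RHBDD2-CKO. Those nearest to MIEF2 had medians of 1.18, 1.16, 1.18 and 1.09, and those nearest to PLD6 of 0.90, 0.95, 0.91 and 0.93. CHCHD4 and TAMM41 both lie on chromosome 3, and the neighbours of CHCHD4 had medians of −0.36, −0.39, −0.40 and −0.33. Medians were −0.38, −0.33, −0.43 and −0.45 near TRIAP1 on chromosome 12, 0.47, 0.53, 0.44 and 0.49 near MFN2 on chromosome 1 and 0.40, 0.27, 0.37 and 0.058 near YME1L1 on chromosome 10. Near SLC25A5 on chromosome X the median was −0.63 in RHBDD2-CKO.
Other genes had neighbours with medians closer to 0. They were 0.026, −0.18, −0.054 and 0.024 near GDAP1 and 0.053, 0.062, 0.13 and −0.019 near ATP5MC3, and near ATP5F1A the median was −0.12 in MAGI2-CKO. Among the 10 genes of cristae, the neighbours of C19orf70 had medians of −0.12, 0.030, 0.026 and −0.038, from which C19orf70 differed by −0.22, −0.24, −0.20 and −0.35. The part of the neighbourhoods in these changes was not tested.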

How the data were processed

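The authors deposited 1 table per library with a value for each of 58735 genes. The tables do not name the unit, and it was worked out from the values. The deposited values are FPKM, since each of them times the exon length of its gene in GENCODE v29 (GRCh38) came out as a whole multiple of 1 step per library, within 0.05. The fragments so recovered gave the depth, 15517856 to 19489918 per library, which covers counting error only. The submitters' processing notes name HISAT2 2.0.5, featureCounts 1.5.0-p3 and DESeq2. The genome build is not given in the sources used here.
The 16175 genes that reached 0.5 FPKM in 3 libraries or more were tested with limma 3.58.1 (R 4.3.3, eBayes with a trend) on log2(FPKM + 0.1), a scale that understates changes of low genes. All 15 libraries entered 1 fit with 5 group means, with groups and replicate numbers from the labels. The Benjamini-Hochberg adjustment was made for each comparison separately. The fit was tested on simulated data.
The 10 genes and the related lists were chosen with earlier results of these data known. Named besides the 10 genes are the edited genes, genes of the related lists past the threshold in the same direction in all 4 clones or with the largest change in a clone, and the 3 genes most like C19orf70 and IMMT. Of the edited genes, MLPH was listed at 0 in every library and MAGI2 stayed at or below 0.115 FPKM in the group means. RHBDD2 averaged 33.5 ± 5.50 FPKM in Non-target, 12.4 ± 1.18 FPKM in RHBDD2-CKO and 13.8 ± 2.15 FPKM in MAGI2-CKO (SD, n = 3).
The alternatives were pseudocounts of 1 and 0.01, no filter (32715 genes), a floor of 1 FPKM on the mean (12533 genes), rescaling to TPM, quantile normalization, no trend, only the 6 libraries of a comparison, the replicate number as a block, voom weights on the recovered fragments, and each library left out in turn. Replicates 2 and 3 of every group alone were added after seeing the data. Guides were matched to transcripts only.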

Additional observations from a re-analysis of the deposited data

How the results depend on the processing

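Over the 40 pairs of a gene and a clone and 26 alternatives, 973 results kept their direction and their side of the threshold, 39 newly passed it, 21 no longer passed and 7 changed sign. CHCHD6 in RHBDD2-CKO, APOOL in C9orf89-CKO and RHBDD2-CKO, and SAMM50 in C9orf89-CKO and MAGI2-CKO passed under all 26, and SAMM50 in MLPH-CKO under 25. CHCHD6 passed under 19 in C9orf89-CKO and 22 in MLPH-CKO, C19orf70 in RHBDD2-CKO under 22 and OPA1 in MAGI2-CKO under 21. Values that changed sign lay near 0 afterwards. Before rescaling, IMMT, MTX1 and MTX2 in RHBDD2-CKO were at −0.15, −0.13 and −0.14, close to the median of −0.15 of the 10 genes there. Rescaling to TPM gave log2 fold changes of 2.57e-05 for IMMT, 0.018 for MTX1 and 0.017 for MTX2 in RHBDD2-CKO. OPA1 in MLPH-CKO was at 0.026 from replicates 2 and 3. Leaving out each library in turn, the changes in MLPH-CKO ranged from −0.26 to 0.0632 for APOO, −0.22 to 0.0599 for MTX1 and −0.0964 to 0.0122 for OPA1. Rescaling to TPM moved the share of higher genes among all calls from 51.04% to 73.4% in RHBDD2-CKO and from 49.7% to 61.8% in C9orf89-CKO, and voom weights to 61.3% in RHBDD2-CKO. The replicate numbers are shared between groups, but no label states that they mark a batch. The deviations of same-numbered libraries correlated at a median of 0.0856 (12 of 30 pairs over 0.1, of which all 10 between libraries numbered 1, at a median of 0.212, and 1 of 10 for each of numbers 2 and 3), those of others at −0.0887, and 12 of 15 libraries followed their own number best. A replicate block let 5, 4, 4 and 5 of the 10 genes pass in the 4 clones, beside 35.4%, 44.3%, 38.9% and 43.5% of all tested genes. With it CHCHD3 passed in all 4 (limma, adjusted p = 0.0437, 0.0306, 0.0158 and 0.00984), IMMT in all but C9orf89-CKO (0.00200, 0.00585 and 0.0454) and C19orf70 in C9orf89-CKO (0.0264). Genes that set a group apart under the block were CHCHD6, lower in RHBDD2-CKO, and CHCHD3, higher in Non-target, as were 7.75% and 5.16% of all tested genes. From replicates 2 and 3, 5, 5, 5 and 8 passed, as did 43 of the 84 related genes in C9orf89-CKO and 51 in RHBDD2-CKO. The fit of only the 6 libraries in MLPH-CKO left 0 of the 10 genes and 22.1% of all tested genes past the threshold by limma, with 3 of the 10 at an unadjusted p under 0.05, while voom weights on all libraries left 2. Leave-one-out fits gave ranges, in which 2 to 4, 1 to 3, 1 to 3 and 2 to 5 of the 10 genes passed, and 20 to 30, 27 to 36, 20 to 30 and 20 to 36 of the related genes. Of all tested genes 20.3% to 27%, 29.4% to 36.9%, 24% to 31.1% and 26.4% to 34.9% passed in these fits. The count was 1 in MAGI2-CKO without its replicate 2 or 3 or Non-target replicate 3, 1 in MLPH-CKO without its replicate 2 or 3 or Non-target replicate 2, and 5 in RHBDD2-CKO without its replicate 1. It was 2 in C9orf89-CKO without Non-target replicate 2 or any 1 of its own, and 2 in RHBDD2-CKO without Non-target replicate 2 or its own replicate 2 or 3. Without Non-target replicate 2, 20 related genes passed in RHBDD2-CKO. The causes were not tested.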
